A study of Mus musculus with 7 samples.

Results

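Brain microvessel preparations carry along a small number of blood-borne and vessel-associated immune cells, and the cells described here were those of the myeloid lineage other than microglia. They were chosen from raw UMI counts (unique molecular identifiers, 1 per captured mRNA molecule) in 7 single cell RNA libraries. A barcode was eligible with at least 500 detected genes, at most 15% mitochondrial UMIs, at most 2 UMIs summed over Cldn5, Ly6c1 and Flt1 (endothelial genes), and no more than 1 of the microglia genes P2ry12, Tmem119 and Siglech. Eligible barcodes were called border macrophages with 3 or more of Mrc1, Pf4, F13a1, Cd163, Lyve1, Ms4a7 and Cbr2, monocytes with 3 or more of Ly6c2, Ccr2, Plac8, Chil3 and Ms4a4c, and neutrophils with 3 or more of S100a8, S100a9, Retnlg, Csf3r and Cxcr2. The rule took 76 of 39315 barcodes that passed the gene and mitochondrial limits: 44 border macrophages, 32 barcodes of the monocyte gate and 0 neutrophils. No barcode met more than 1 gate, and no member's barcode was listed in another library. The gate genes chose the members, so their values are no result.

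All libraries came from untreated C57Bl6 mice, an inbred laboratory strain, and each from 1 brain hemisphere without cerebellum, olfactory bulbs and brain stem. After collagenase digestion, beads carrying an antibody bound cells with CD31 (Pecam1), a surface protein of endothelium, so the share of myeloid cells is not that of the tissue. There were 3 libraries at 12 months and 4 at 3 months of age. The labels name no animals, so replicates are separate samples only as labelled, and the sex of the mice is not given. Cell Ranger 4.0.0 made the count matrices of the 12-month libraries, which were single-indexed, and 6.1.1 those of the 3-month libraries, which were dual-indexed, so age, index type and software version cannot be told apart. Libraries held 8706961 to 44861008 UMIs, and the median passing barcode 1112 to 2842 UMIs at 12 months against 3106 to 5412 at 3 months. Border macrophages had a median of 2112.5 UMIs (779 to 13186) and the monocyte gate 5071 (874 to 13320).

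Border macrophages live along vessels, in the meninges and in the choroid plexus. They take up material from the surrounding fluid through scavenger receptors, and a part of them presents antigen on MHC class II molecules. Monocytes circulate in the blood: classical monocytes, marked in mice by high Ly6C, can enter tissue through the chemokine receptor Ccr2, while patrolling monocytes stay on the vessel wall. Neutrophils are short-lived granulocytes of the blood that carry antimicrobial proteins in granules.

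Gate genes were detected in most border macrophages: Pf4, a chemokine, in 41 of 44, Mrc1, the mannose receptor, in 40, Ms4a7 in 35 and F13a1, a coagulation factor chain, in 32, against 18 for the haemoglobin scavenger Cd163, 14 for Cbr2 and 6 for the hyaluronan receptor Lyve1. At the threshold, 16 border macrophages had exactly 3 gate genes and 16 eligible barcodes had 2, while 17 barcodes of the monocyte gate had exactly 3 and 81 eligible barcodes had 2. The endothelial limit left out 10 barcodes that met the border macrophage gate and 14 that met the monocyte gate, none of them through Ly6c1 alone. Outside the gate, all 44 border macrophages had UMIs of Apoe and C1qa, and T and NK cell markers were at 0 UMIs for all 8 genes. B cell markers had 23 UMIs in all, from 2 of 6 genes, with 2 or more markers in 3 of 44 barcodes, and dendritic cell markers 34 UMIs, from 3 of 10 genes. These barcodes were kept. Exactly 1 of the 3 microglia genes was detected in 18 of 44 border macrophages and in 4 of 32 barcodes of the monocyte gate. The limit on these genes left out 4 barcodes that met the border macrophage gate and 2 that met the monocyte gate. The whole list of microglia markers outside the gate summed to 4917 to 17474 CPM (UMIs of a gene scaled to the same total in every sum) in border macrophages per library, against 49477 to 83489 CPM in microglia. Pericyte and fibroblast markers summed to 2643 and 2230.4 CPM in 3-month replicate 4 and to at most 167 and 278 CPM in the other libraries. There, 1 border macrophage held 13186 UMIs and 4316 genes, against 1999 genes in the next, with 101 UMIs of Apod and 74 of Ptn. Scrublet, a doublet caller, marked 7 of 11 border macrophages at 3 months, that one included, and 0 of 33 at 12 months, and it marked 0 of 32 barcodes of the monocyte gate.

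The first question was whether the 3 groups took a different share of the cells at the 2 ages. Border macrophages numbered 9, 6 and 18 at 12 months (replicates 1 to 3) and 3, 4, 0 and 4 at 3 months (replicates 1 to 4), which is 0.170%, 0.0948% and 0.185% against 0.0732%, 0.0969%, 0% and 0.102% of passing barcodes. The ages overlapped: 12-month replicate 2 lay below 3-month replicates 2 and 4. Their mean share was 0.150% ± 0.0486 (SD, n = 3) at 12 months and 0.0680% ± 0.0470 (SD, n = 4) at 3 months, a difference that did not pass the two-sided exact permutation test, which runs over 35 regroupings of the samples (p = 0.114, adjusted p = 0.343 over the 3 groups; the smallest p possible was 0.0286). Barcodes of the monocyte gate numbered 0, 9 and 11 against 3, 3, 4 and 2. Their mean share was 0.0852% ± 0.0752 (SD, n = 3) at 12 months and 0.0663% ± 0.0104 (SD, n = 4) at 3 months, with p = 0.629 and adjusted p = 0.943 in the same exact permutation test, and the direction turned without 12-month replicate 2. With each cell thinned to 1000 UMIs, which left 3259, 6204 and 9002 barcodes at 12 months and 4017, 4062, 5745 and 3877 at 3 months, border macrophages were 0.0614%, 0.0967% and 0.133% against 0.0498%, 0.0492%, 0% and 0.0258%, where the ages did not overlap (exact permutation p = 0.0286, adjusted p = 0.0857). Counting intervals were wide: 18 of 9705 barcodes in 12-month replicate 3 had a 95% Clopper-Pearson interval of 0.110% to 0.293%, which covers counting error only.

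**Figure D1:**
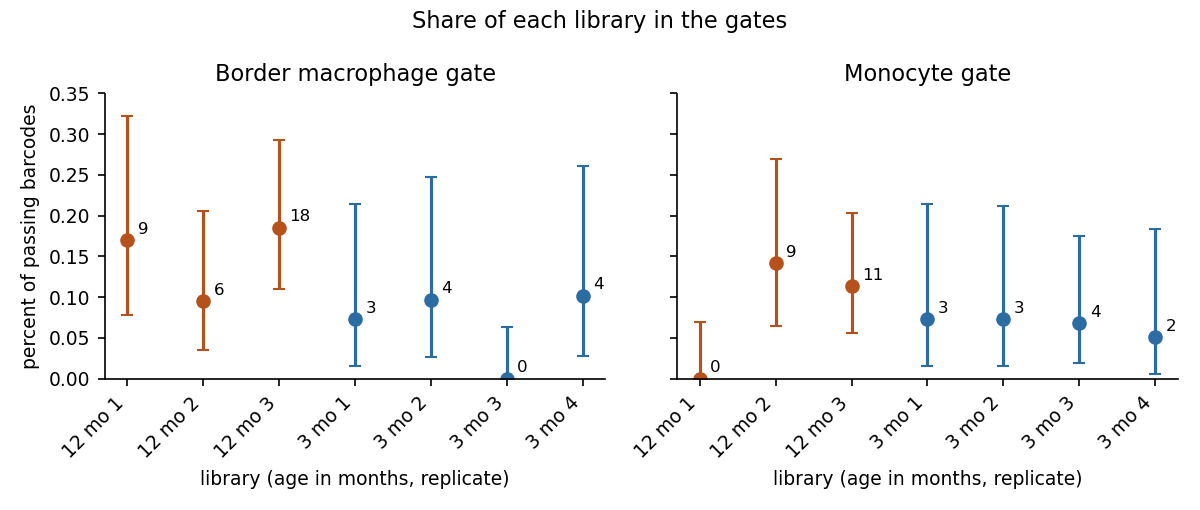
Percent of passing barcodes in the border macrophage gate (left) and the monocyte gate (right) in each library, with 95% exact Clopper-Pearson intervals and the number of barcodes beside each point (12-month libraries in orange, 3-month libraries in blue). Intervals overlap across the ages in both panels, and 3-month replicate 3 held 0 border macrophages and 12-month replicate 1 held 0 barcodes of the monocyte gate.

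Border macrophages were then set against microglia of the same libraries, the resident macrophages of the brain tissue, taken as 2376 barcodes with 2 or 3 of the microglia genes, the same limits on genes, mitochondrial and endothelial UMIs, and no gate met. Antigen presentation genes were far higher in border macrophages: the MHC class II chains H2-Aa, H2-Ab1 and H2-Eb1 and Cd74, the invariant chain that guides them, lay 6.13 to 7.27 higher on the log2 scale. Apoe (a lipid carrier), Dab2 (an endocytic adaptor), Stab1 (a scavenger receptor), Lyz2 (lysozyme) and Wfdc17 were higher as well. Genes typical of microglia outside the gate were lower, as were many immediate early genes and integrins, while lysosomal genes went in both directions. Over 6 libraries with at least 3 border macrophages, edgeR's quasi-likelihood test on UMI sums with the library as a term called 386 of 1373 genes outside the gates (28.1%) at an adjusted p under 0.05, 144 higher (10.5%) and 242 lower (17.6%). The median log2 difference over all genes tested was -0.21, and -0.40 with RLE scaling. Without 12-month replicate 3 the count was 243 of 1261 genes tested (79 higher and 164 lower). Without 12-month replicate 2 it was 333 of 4150 (58 higher and 275 lower), and with doublets removed 248 of 1404. Members were chosen by gate genes, so genes that go with these had to differ, and the test compares the gated barcodes.

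H2-Aa stood at 2754, 389.6 and 2526 CPM at 12 months (replicates 1 to 3) and 4152, 5541 and 4543 CPM at 3 months (replicates 1, 2 and 4), and in microglia at 0 to 259 CPM over all 7 libraries. H2-Ab1 stood at 3672, 389.6 and 2851 CPM at 12 months (replicates 1 to 3) and 2249, 5956 and 5824 CPM at 3 months (replicates 1, 2 and 4), against 0 to 322 CPM in microglia. H2-Eb1 stood at 2346, 278 and 3802 CPM at 12 months (replicates 1 to 3) and 2249, 9280.4 and 5906 CPM at 3 months (replicates 1, 2 and 4), against 0 to 265 CPM in microglia. All 6 libraries were higher in border macrophages for each of these genes, and the 2 groups of values did not overlap within the fit. The log2 differences were 7.16 ± 0.36, 6.81 ± 0.35 and 7.27 ± 0.37 (± SE), and 6.13 ± 0.33 for Cd74, whose level was 8201 ± 4689 against 137 ± 123 CPM (SD, n = 6). In the MHC class II list 6 of 7 tested genes were higher, among them the peptide-loading genes H2-DMa (1.03 ± 0.34) and H2-DMb1 (1.49 ± 0.41), and the protease gene Ctss was lower (-1.43 ± 0.28), with a median log2 difference of 6.13 over the list. H2-DMa, H2-DMb1 and Ctss are named here after their values were seen. All 4 genes kept their call without each library in turn. H2-Aa, H2-Ab1 and H2-Eb1 did not pass the filter on low counts when border macrophages needed at least 4 gate genes, so they were not tested there, while Cd74 was called there too, at 3.68. As a background for UMIs from free RNA, H2-Aa was detected in 1.09% of endothelial barcodes (median 3090 UMIs), in 1.09% of microglia and in 43.2% of border macrophages.

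Dab2, Stab1, Apoe and Lyz2 were also higher. Dab2 stood at 714, 946 and 775 CPM at 12 months (replicates 1 to 3) and 1903, 1177 and 496 CPM at 3 months (replicates 1, 2 and 4). Stab1 stood at 510.0, 1169 and 800.4 CPM at 12 months (replicates 1 to 3) and 1038, 693 and 454 CPM at 3 months (replicates 1, 2 and 4), against 104 to 159 CPM in microglia. Both were above every microglia library of the fit, by 6.35 ± 0.37 and 2.55 ± 0.30 on the log2 scale. Apoe was at 52554 ± 30523 against 1284 ± 1348 CPM (log2 difference 5.56 ± 0.32), and Lyz2 at 9319 ± 4261 against 372 ± 159 CPM (4.65 ± 0.30; SD, n = 6). Apoe was also detected in 79.1% of endothelial barcodes against 31.4% of microglia, and the part of free RNA in its level was not tested. Wfdc17, a small secreted protein, reached 8.38 ± 0.43, Pltp (phospholipid transfer) 2.99 ± 0.38, the bridging ligand Gas6 1.95 ± 0.37, the neonatal Fc receptor Fcgrt 2.01 ± 0.37 and the haem enzyme Blvrb 2.20 ± 0.37, with Fth1 and Ftl1, the ferritin chains, 1.51 ± 0.26 and 1.09 ± 0.26 higher. Gas6 did not pass the filter on low counts without 12-month replicate 3 and lost its call with no filter, and Ftl1 lost its call without 12-month replicate 2 and with doublets removed. Of the lipid handling list 2 of 8 tested genes were higher (Apoe and Pltp) and 2 lower, Trem2, a lipid-sensing receptor (-1.95 ± 0.31), and Ptgs1, a prostaglandin enzyme (-2.47 ± 0.47), with a median log2 difference of 0.02. Of the scavenger list 3 of 8 tested genes were higher and 2 lower, Mertk, a receptor for dead cells (-2.65 ± 0.50), and Lrp1, an endocytic receptor (-1.36 ± 0.44; named after its value was seen). Of the iron and haem list 3 of 5 were higher and 0 lower, and of the interferon list 3 of 4 were higher, namely Ifitm3 (3.52 ± 0.32), Ifi27l2a (3.37 ± 0.35) and Bst2 (1.75 ± 0.31).

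Among the named genes that were lower, 3 had 0 UMIs in all border macrophages of the fit. They passed the filter on low counts through the microglia sums alone, so their direction is no test. Against a floor of 3 counts over the group, Il1a, a cytokine, was at least 14.7-fold lower, the transcription factor Sall1 at least 10.8-fold and the fructose transporter Slc2a5 at least 9.65-fold. The chemokine receptor Cx3cr1 stood at 1020.1, 223 and 250.1 CPM at 12 months (replicates 1 to 3) and 346, 416 and 578 CPM at 3 months (replicates 1, 2 and 4), against 1909.5 to 6999 CPM in microglia. Every border macrophage library lay under every microglia library, with a log2 difference of -3.16 ± 0.33. The matrix protein Sparc (-5.29 ± 0.44), Cd9 (-4.70 ± 0.48), the selectin ligand Selplg (-3.55 ± 0.39) and Olfml3 (-4.38 ± 0.48) were lower too, each in 6 of 6 libraries. By list, 6 of 9 integrin and adhesion genes were lower and 0 higher, 11 of 20 immediate early genes lower and 0 higher (Socs3 -2.59 ± 0.54, Btg2 -1.73 ± 0.30, Junb -1.67 ± 0.30), and 8 of 22 lysosomal genes lower (Ctsd -2.24 ± 0.30, Ctsl -1.85 ± 0.34, Cst3 -2.64 ± 0.28) and 3 higher. Those 3, named after their values were seen, were Cd63 (1.00 ± 0.29) and the proteases Ctsb (0.95 ± 0.27) and Ctsc (1.47 ± 0.29). The median log2 difference over the lysosomal list was -0.02, against -0.21 over all genes tested. Of 16 myeloid transcription factors 7 were lower, among them Irf5 (-1.55 ± 0.60) and Cebpa (-1.25 ± 0.45), both of which lost their call without 12-month replicate 2 or 3 and without 3-month replicate 2, and 1 was higher, Maf (0.99 ± 0.28). Of 12 cytokine and receptor genes 6 were lower, with Tgfbr1, a TGF-beta receptor, at -2.28 ± 0.38 and Csf1r, the receptor that macrophages need to survive, at -1.29 ± 0.30, and 1 was higher. Of 10 heat shock genes tested 0 passed in either direction. Of the complement list 3 of 7 were lower: the integrin chains Itgam (-2.34 ± 0.45) and Itgb2 (-1.68 ± 0.56; call lost without 12-month replicate 2, without 3-month replicate 4 and with doublets removed), and C1qb (-0.81 ± 0.27), whose level was 4403 ± 1963 against 7459 ± 1344 CPM, and whose call was lost without 3-month replicate 1 or 2 and with doublets removed. Of 62 genes named by rule, 46 kept their call without each library in turn, and 8 kept it in all of the 10 other settings, where 12 of 62 passed the filter on low counts in thinned sums. None changed sign where it was tested.

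**Figure D2:**
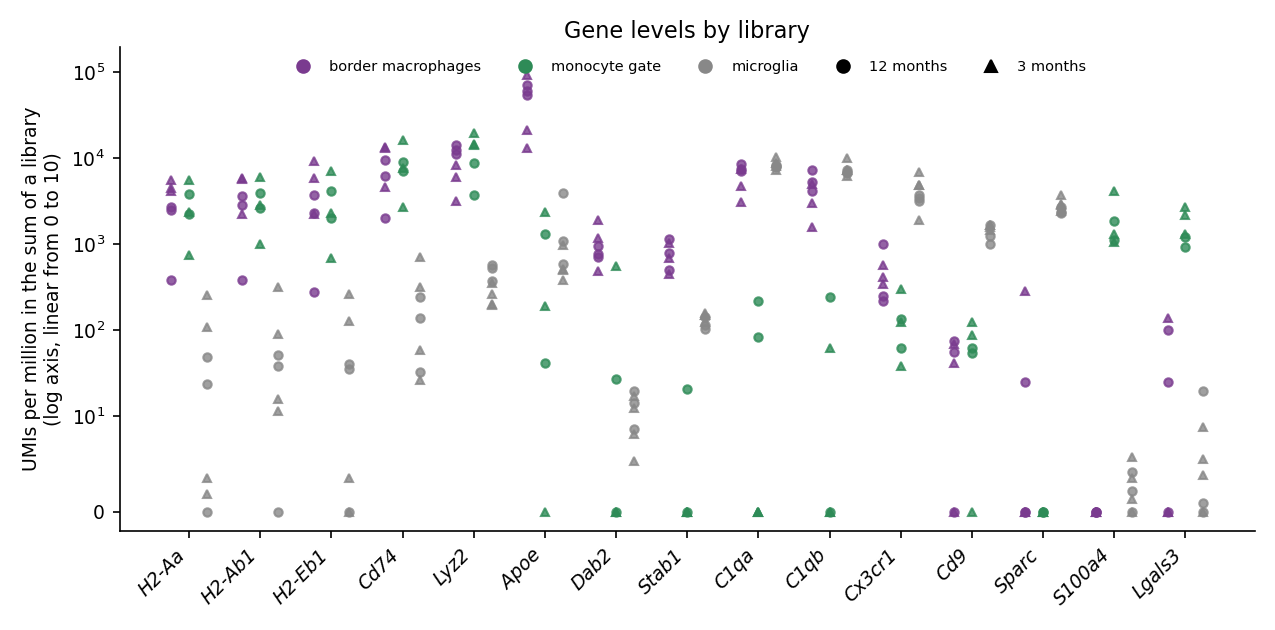
CPM of 15 genes in the summed cells of each library with at least 3 cells, on a log axis that is linear from 0 to 10, for border macrophages (purple), the monocyte gate (green) and microglia (grey), with circles for 12-month and triangles for 3-month libraries. The MHC class II genes overlap between border macrophages and the monocyte gate and lie lower in microglia, C1qa and C1qb lie low in the monocyte gate, and S100a4 is at 0 in all border macrophage sums.

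**Figure D3:**
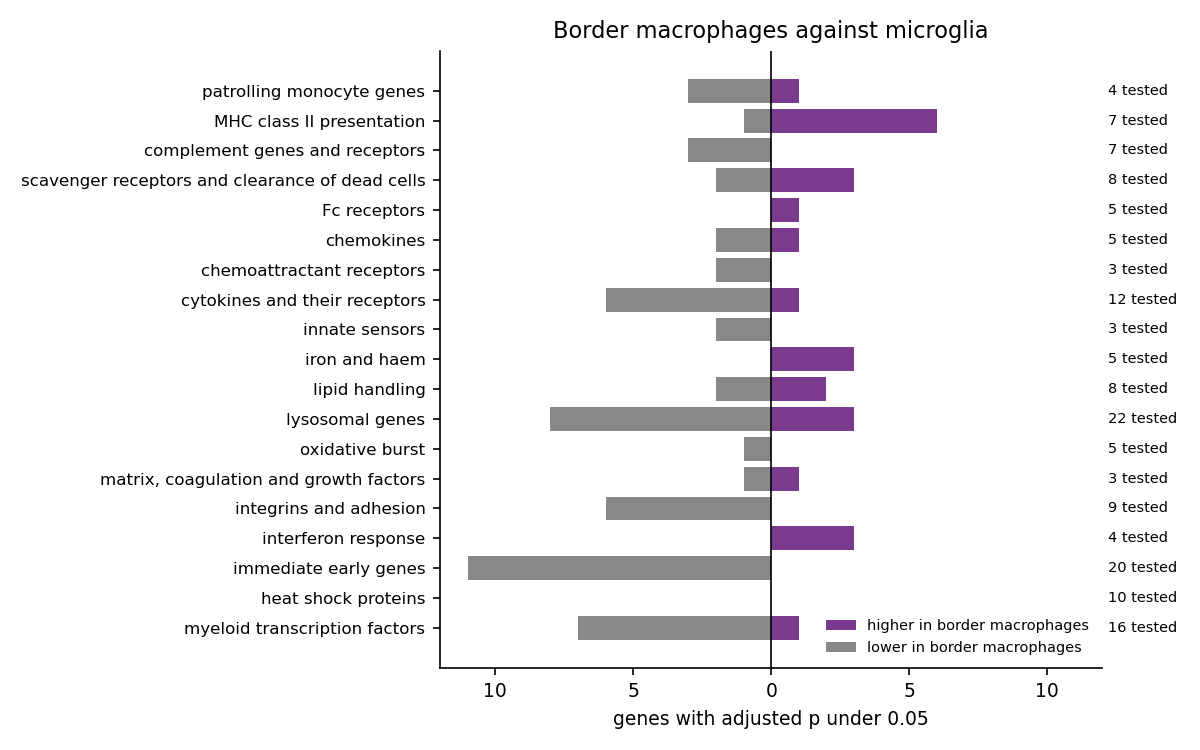
Number of genes of each list that were higher (purple) or lower (grey) in border macrophages than in microglia at an edgeR adjusted p under 0.05, for lists with at least 3 tested genes and with the number tested at the right. The MHC class II list has 6 higher and 1 lower of 7, and the immediate early list 0 higher and 11 lower of 20.

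MHC class II did not run through all border macrophages. Summed over H2-Aa, H2-Ab1, H2-Eb1 and Cd74, 16 of 44 cells held 0 UMIs, 8 held 1 to 4, and 20 held 10 or more, and only 1 cell lay between 5 and 15 UMIs. The division at 10 was set after these values were seen, on UMIs not scaled for the depth of each cell. Per 1000 UMIs the 2 kinds overlapped, with the lowest high cell at 3.43 and the highest low cell at 3.94. The high cells had a median of 2218 UMIs in all and the low cells 2091. High cells were 3 of 9, 2 of 6 and 8 of 18 in the 12-month libraries and 1 of 3, 3 of 4 and 3 of 4 in 3-month replicates 1, 2 and 4. Both kinds were found in every library that held border macrophages. Scrublet marked 4 of the 20 high and 3 of the 24 low cells.

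The genes below are a description of cells divided by their own MHC class II UMIs, chosen after their values were seen. They are the 5 in each direction whose share of cells differed most among 171 list genes with at least 15 UMIs. The 171 include gate genes and the 4 genes that divided the cells, which were passed over. The peptide-loading gene H2-DMb1 was detected in 12 of 20 against 1 of 24 cells (high against low) and H2-DMa in 14 of 20 against 5 of 24. The immediate early gene Junb was detected in 17 of 20 against 11 of 24, the growth factor gene Pdgfb in 8 of 20 against 1 of 24, and the chemokine Cxcl16 in 11 of 20 against 5 of 24. In the other direction, Fcrls was detected in 7 of 20 against 22 of 24, the iron exporter Slc40a1 in 1 of 20 against 11 of 24, the eosinophil chemokine Ccl24 in 2 of 20 against 12 of 24, Stab1 in 8 of 20 against 18 of 24 and Wfdc17 in 9 of 20 against 19 of 24. All 6 cells with a Lyve1 UMI came from 12-month libraries, too few for a comparison of cells with and without Lyve1.

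**Figure D4:**
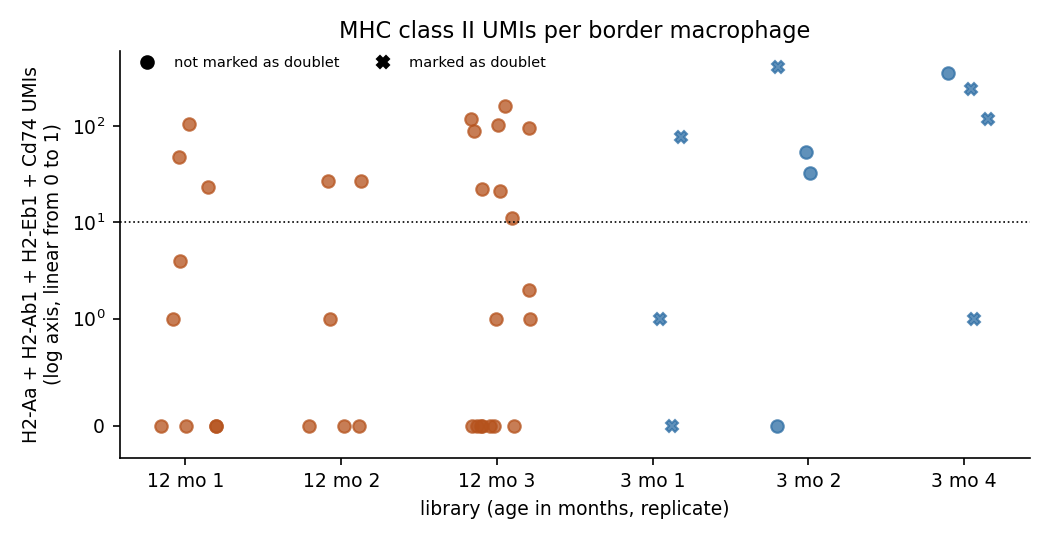
UMIs of H2-Aa, H2-Ab1, H2-Eb1 and Cd74 together in each of 44 border macrophages, by library, on a log axis that is linear from 0 to 1, with a dotted line at 10 UMIs (12-month libraries in orange, 3-month libraries in blue, crosses for barcodes marked as doublets). The cells fall into 20 at or above the line and 24 at 0 to 4 UMIs, and every library shown has both. Replicate 3 at 3 months held no border macrophages and is not shown.

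The promoters of H2-Aa and H2-Eb1 are shown because these genes carry the largest MHC class II differences, as windows of 300 bases from 250 before to 50 after the gene start, taken from RefSeq on build GRCm38.p6. H2-Aa lies at chromosome 17, 34282744 to 34287823, minus strand, H2-Ab1 at chromosome 17, 34257689 to 34269419, plus strand and H2-Eb1 at chromosome 17, 34305867 to 34316674, plus strand in the GENCODE annotation of GRCm38 (mm10). H2-Aa and H2-Eb1 were matched by symbol in the promoter table. Capitals mark CTGATTGG, a match to the inverted CCAAT box known as the Y box of MHC class II promoters, searched on both strands. The string was kept out of 10 tried, after the sequences of 4 promoters were in view, so its presence in both is no test. It stands in 1346 of 32851 promoter windows of this length (4.10%).
H2-Aa, chr17:34287774-34288073, minus strand: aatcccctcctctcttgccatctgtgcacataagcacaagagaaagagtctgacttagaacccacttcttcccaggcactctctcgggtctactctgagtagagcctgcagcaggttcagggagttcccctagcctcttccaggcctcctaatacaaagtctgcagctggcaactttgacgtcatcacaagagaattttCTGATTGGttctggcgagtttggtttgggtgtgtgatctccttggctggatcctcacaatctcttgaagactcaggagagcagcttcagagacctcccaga
H2-Eb1, chr17:34305617-34305916, plus strand: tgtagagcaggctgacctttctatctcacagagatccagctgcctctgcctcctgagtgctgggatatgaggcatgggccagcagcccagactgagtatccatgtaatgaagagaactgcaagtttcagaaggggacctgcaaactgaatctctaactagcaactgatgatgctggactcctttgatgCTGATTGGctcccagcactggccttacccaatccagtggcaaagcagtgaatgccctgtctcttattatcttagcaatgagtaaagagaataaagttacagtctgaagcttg
The match begins 51 bases before the gene start in H2-Aa and 62 in H2-Eb1. It says nothing of a factor bound there in these cells.

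The 32 barcodes of the monocyte gate went against the label in part. Tyrobp and Fcer1g, adaptor genes of myeloid cells, were detected in 26 and 25 of 32, and Lyz2 in 19 of 32. Barcodes with 2 or more T and NK cell markers numbered 4, all with Cd3d, without Tyrobp and with 0 Lyz2 UMIs. Another 4 had 2 or more B cell markers, 3 of them with Cd79a, again with 0 Lyz2 UMIs. Of these 4, 2 had Tyrobp, 1 had Fcer1g and 4 had at least 1 marker of the dendritic cell list. The B-marked barcode without Cd79a held 1 UMI of Cd79b and 2 of Ighm, beside 14 of Tyrobp and 7 of Fcer1g. Plac8, Ly6c2 and Ccr2 are known to be expressed in some lymphocytes as well. The 8 lymphocyte-marked barcodes lay in 12-month replicates 2 (2) and 3 (4) and in 3-month replicate 3 (2). Of the remaining 24, 17 held 10 or more Lyz2 UMIs and 7 held 0 or 1, with none between. These limits were set after the values were seen, and the group is called the monocyte gate throughout.

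The 17 Lyz2-high barcodes all had UMIs of Tyrobp and Fcer1g, 16 had S100a4, 11 Csf1r and 10 Fn1. By MHC class II UMIs they fell into 9 with 0, 2 with 1 to 9 and 6 with 10 or more. Fn1, fibronectin, a gene of classical monocytes, was detected in 7 of the 9 and in 1 of the 6, and Ace, a gene of patrolling monocytes, in 1 of the 9 and in 3 of the 6. Other genes of the patrolling list did not all follow Ace: Cx3cr1 was detected in a larger part of the 9 than of the 6. At least 4 genes of that list were detected in 5 of the 9 and 6 of the 6, and the barcode with the most, 13, was among the 9. The 7 barcodes with 0 or 1 Lyz2 UMI all held 10 or more MHC class II UMIs, a median of 43.2 per 1000 UMIs. At least 1 marker of the dendritic cell list was found in 6 of these 7 and in 0 of the 17. It was also found in 4 of the 4 barcodes with B cell markers and in 1 of the 4 with T and NK cell markers. With 3 of 7 carrying 2 or more of those 10 markers, the 7 barcodes are left unnamed. Pooled over libraries, Lyz2-high barcodes were 8 of 20 at 12 months and 9 of 12 at 3 months, and the unnamed set 6 and 1.

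**Figure D5:**
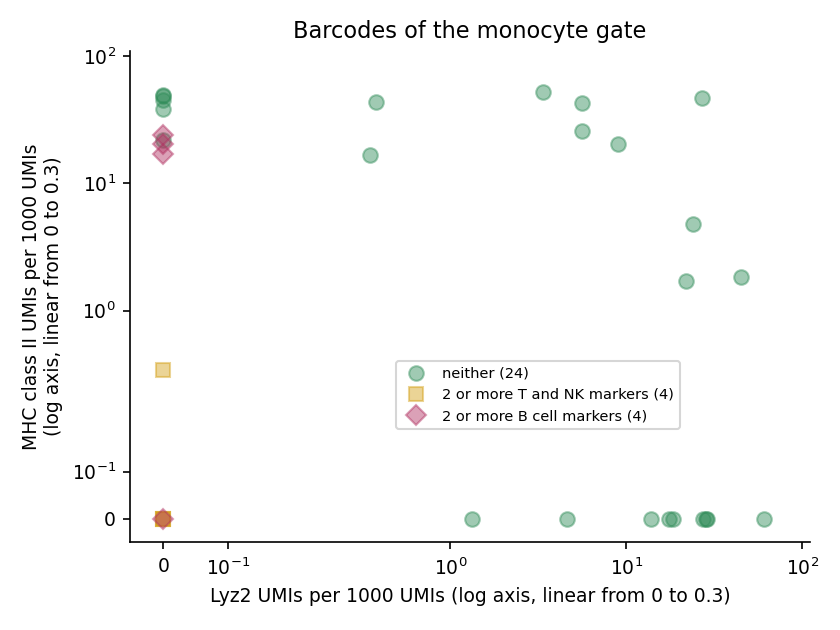
Lyz2 (horizontal) and MHC class II (vertical) UMIs per 1000 UMIs in each of the 32 barcodes of the monocyte gate, on log axes that are linear from 0 to 0.3, where points at 0 lie on top of each other (circles for 24 barcodes without, squares for 4 with T and NK and diamonds for 4 with B cell markers). Barcodes with lymphocyte markers sit at 0 Lyz2, and the others spread over both axes.

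Compared directly over the 4 libraries with at least 3 cells of each, border macrophages and the monocyte gate parted in complement, uptake and lysosomal genes. The edgeR test called 68 of 254 genes outside the gates (26.8%), 46 higher in border macrophages (18.1%) and 22 lower (8.66%). It called 42 of 229 without 12-month replicate 3, 43 of 373 without 3-month replicate 1, and 67 of 264 without the barcodes with lymphocyte markers. C1qc, a chain of the complement protein C1q, stood at 4692, 5065 and 5503 CPM at 12 months (replicates 1 to 3) and 5363, 1939 and 3511 CPM at 3 months (replicates 1, 2 and 4), and in the monocyte gate at 82.4 and 0 CPM at 12 months (replicates 2 and 3) and 0, 0 and 0 CPM at 3 months (replicates 1 to 3). All C1q chains were higher in border macrophages in each of the 4 libraries: C1qa by 6.70 ± 0.53, C1qb by 6.29 ± 0.72 and C1qc by 7.84 ± 0.61 on the log2 scale (edgeR adjusted p = 1.85e-04, 0.00111 and 1.85e-04). Stab1 (6.58 ± 0.62), Maf, a macrophage transcription factor (4.71 ± 1.00), Dab2 (4.07 ± 0.95), the growth factor receptor gene Csf1r (3.22 ± 0.49) and Apoe (7.24 ± 1.46) were higher, of which Maf, Dab2 and Apoe lost their call without 3-month replicate 1. Of the lysosomal list 8 of 11 tested genes were higher and 0 lower, with a median of 1.57. Cd63, a lysosome membrane protein, had 0 UMIs in the monocyte gate and was at least 45.6-fold higher against a floor of 3 counts over the group. It passed the filter on low counts through border macrophages alone, so its direction is no test.

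Genes lower in border macrophages included S100a4, S100a6, Lgals3 and Lsp1, all from the list of monocyte genes outside the gate. S100a4 stood at 0 CPM in every border macrophage sum, and in the monocyte gate at 1895 and 1132 CPM at 12 months (replicates 2 and 3) and 1059, 4154 and 1311 CPM at 3 months (replicates 1 to 3). Against the floor of 3 counts over the group it was at least 49.8-fold lower. S100a4 passed the filter on low counts through the monocyte gate alone, so its direction is no test. S100a6 (-5.16 ± 0.79), the galectin Lgals3 (-4.70 ± 0.64) and Lsp1, a leukocyte actin-binding protein (-4.09 ± 0.65), were lower in all 4 libraries and without each library in turn. Of 24 genes named by rule in this comparison, 12 kept their call without each library in turn. In all of the 10 other settings 0 of the 24 kept it. With at least 5 cells 0 of 24 were called, and 7 of 24 passed the filter on low counts in thinned sums. Of 6 MHC class II genes tested 0 passed in either direction, with a median log2 difference of 0.31. A p that misses the threshold does not show that the 2 groups are alike: H2-Aa was at 3318 ± 1825 CPM (SD, n = 6) in border macrophages and 2967 ± 1839.7 CPM (SD, n = 5) in the monocyte gate.

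By age, 0 of 205 genes passed in border macrophages (0.0% called; 14 at an unadjusted p under 0.05, smallest edgeR adjusted p = 0.150) and 0 of 383 in the monocyte gate (0.0% called; 29 unadjusted, smallest 0.0917). DESeq2's Wald test called 0 and 2. In edgeR, leaving out 3-month replicate 4 gave 1 gene in border macrophages, and leaving out 12-month replicate 2 or 3 gave 2 or 1 in the monocyte gate. Few RNA molecules stood behind these sums, 5780 to 39979 UMIs per library in border macrophages. In simulated sums of this size the test found 83.3% of 12 genes changed by 2 on the log2 scale and 0% of 18 changed by 1. The simulation fixed the spread between libraries beforehand and left 130 of 176 genes unchanged. Its shares are therefore not those the test would reach in these data. Values for a few genes follow as a description, chosen after their values were seen. Ifitm3, a membrane protein of the interferon response, stood in border macrophages at 2040.2, 1837 and 1476 CPM at 12 months (replicates 1 to 3) and 173, 346 and 537 CPM at 3 months (replicates 1, 2 and 4). Ctsd, a lysosomal protease, stood at 2958, 1837 and 1551 CPM at 12 months (replicates 1 to 3) and 346, 139 and 578 CPM at 3 months (replicates 1, 2 and 4). The log2 differences were 2.04 ± 0.44 and 2.32 ± 0.53, and neither passed (edgeR adjusted p = 0.150 and 0.150). In these border macrophage sums 1 UMI was 173 CPM in 3-month replicate 1, 69.3 CPM in replicate 2 and 41.3 CPM in replicate 4. The 3-month values of both genes therefore rest on few UMIs. Pooled over libraries, MHC class II high cells were 13 of 33 at 12 months and 7 of 11 at 3 months. Ctsd stood at 571 CPM in the high and 1878 CPM in the low cells. Scrublet marked 0 of 33 and 7 of 11 cells, and the part of both in these values was not tested. The MHC class II genes had values in the other direction that did not pass, -1.41 ± 0.54 for H2-Aa and -1.52 ± 0.71 for H2-Eb1 (12 months minus 3 months; edgeR adjusted p = 0.585 and 0.671), and 12-month replicate 2 was the lowest library for each. In the monocyte gate, Cebpb, a myeloid transcription factor, was at 522 and 377 CPM at 12 months (replicates 2 and 3) and 1994, 3454 and 2468 CPM at 3 months (replicates 1 to 3), with a log2 difference of -2.53 ± 0.46 (edgeR adjusted p = 0.0917), and Lyz2 differed by -1.34 ± 0.44 (adjusted p = 0.375). By library, Lyz2-high barcodes were 4 of 9 and 4 of 11 at 12 months (replicates 2 and 3). At 3 months they were 2 of 3, 3 of 3 and 2 of 4 (replicates 1 to 3), and the part of this share in these values was not tested.

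Whether age differences were unlike in border macrophages and microglia was tested with an interaction term in the same 6 libraries. It called 3 of 2100 genes (0.143%), all lower (12 months minus 3 months, border macrophages minus microglia), among them Ptn (-4.83 ± 0.84) and Ccl3 (-2.77 ± 0.64). DESeq2 called 0, and 134 genes had an unadjusted p under 0.05 in edgeR. Ptn, a secreted growth factor, had 74 UMIs in the border macrophages of 3-month replicate 4, all of them in the barcode of 13186 UMIs. Without that barcode Ptn did not pass the filter on low counts, and without 3-month replicate 4 neither Ptn nor Ccl3 was called. Ccl3, a chemokine, stood in border macrophages at 510.0, 501 and 875 CPM at 12 months (replicates 1 to 3) and 0, 346 and 1528 CPM at 3 months (replicates 1, 2 and 4), and in microglia at 3031, 3365 and 2965 CPM at 12 months (replicates 1 to 3) and 752, 626, 417 and 258 CPM at 3 months (replicates 1 to 4). Microglia of every 12-month library lay above every 3-month one, while border macrophages of the ages overlapped. The call of Ccl3 was kept without 3-month replicate 1 and lost without each of the other 5 libraries. Its direction turned with doublets removed, a fit in which 3-month replicate 2 was the only 3-month library. The count of called genes was 0 of 6107 without 12-month replicate 2, 7 of 2403 without 3-month replicate 1, 11 of 2540 without 3-month replicate 2 and 1 of 2490 without 3-month replicate 4. In simulated sums, again with a spread fixed beforehand, the interaction found 12.3% of 65 genes changed by 3 on the log2 scale.

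No barcode met the neutrophil gate under all limits: 0 of 39315 barcodes, which allows a share of up to 0.00763% overall and of 0.0309% to 0.0765% in single libraries (3 counts; counting error only). Over all barcodes of the files 2 met the gate, 1 with under 500 genes and 1 over the endothelial limit. S100a8 and S100a9, calprotectin chains abundant in neutrophils, had UMIs in 14 and 27 passing barcodes, with up to 46 and 57 UMIs in 1 barcode. Retnlg was detected in 12 and Cxcr2 in 75 passing barcodes. Csf3r, the receptor for granulocyte colony-stimulating factor, was detected in 1016 passing barcodes, of which 92 were eligible. Neutrophils are known to hold few mRNA molecules per cell, the lowest deposited barcode held 500 UMIs, and the part of these minimums in the count was not tested.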

How the data were processed

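Single cell RNA libraries of CD31-captured mouse brain cells were analysed as UMI counts per gene and barcode, the filtered matrices deposited by the authors. Per the file headers they were made with Cell Ranger 4.0.0 (12 months) and 6.1.1 (3 months), and per the submitters' processing notes on build mm10. The members and gene lists were chosen with earlier results of these data known. Scrublet marked doublets at a rate of 0.8% per 1000 barcodes, which were kept in the reported values. UMIs were summed per library and group and tested with edgeR 4.0.16 (R 4.3.3; TMM scaling, filterByExpr, quasi-likelihood test, Benjamini-Hochberg adjustment over all genes tested), with the library as a term between groups and age between libraries. A minimum of 10 cells per library and group had been planned, but too few libraries reached it for any fit, so 3 cells were used, chosen after the cell counts were seen. Gate genes were left out of all counts of genes. Shares were tested with exact permutation over 35 splits (scipy 1.17.1), and intervals and floors cover counting error only. The p-values measure the spread between these samples, which may be technical, since nothing says that they came from separate animals. Genes named between groups were up to 4 of each list with an adjusted p under 0.05, at least 50 CPM in the higher group and the largest change, and for the interaction term 5 genes with the most positive and 5 with the most negative values. Levels of MHC class II, complement, chemokine, granule and patrolling monocyte genes could be given whether or not they passed, and other genes given as a description were chosen after their values were seen. DESeq2 1.42.0, other scalings, filters, gates, thinned counts and left-out libraries were tried as alternatives. The steps were tested on simulated data. Neutrophil genes, and border macrophages with against without Lyve1, could not be tested for lack of cells. Some genes that passed are counted but not reported by name here.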

Additional observations from a re-analysis of the deposited data

Results flagged for a closer look

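The age difference was unlike in border macrophages and microglia for Ptn and Ccl3 by the interaction term of edgeR's quasi-likelihood test over 6 libraries. Ptn had a log2 interaction of -4.83 ± 0.84 (adjusted p = 1.17e-05), which rested on 1 barcode of 3-month replicate 4 that scrublet marked as a doublet. Ccl3 had a log2 interaction of -2.77 ± 0.64 (adjusted p = 0.0117), a call that was lost without 5 of the 6 libraries in turn and with DESeq2. Its direction turned with doublets removed, a fit in which 3-month replicate 2 was the only 3-month library.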

How the results depend on the processing

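Differences are 12 months minus 3 months, in percentage points for shares. The difference in the share of border macrophages kept its direction under all alternatives run, at 0.0594 to 0.110 without each library in turn. Its exact permutation p was the smallest possible, 0.0286, with at least 2 or at least 4 gate genes, with thinned cells and with doublets removed, where the adjusted p of 0.0857 could not be lower with these p-values in the other groups. That of the monocyte gate turned to -0.0570 with at least 2 gate genes, to -0.0124 with at least 4, and ran from -0.00966 to 0.0614 without each library in turn. Genes called by age in border macrophages numbered 0 to 1 without each library, 5 of 9435 with no filter beyond 1 count and 2 of 177 without the barcode with the most genes. With doublets removed, 3-month replicate 2 was the only 3-month library left in that fit. In the monocyte gate they numbered 0 without each 3-month library, 2 of 383 with DESeq2 and 15 of 9216 with no filter. Leaving out 12-month replicate 2 or 3 there left the other as the only 12-month library. Genes called against microglia numbered 243 to 368 without each library (1261 to 4150 tested), 1085 of 16179 with no filter, 248 of 1404 with doublets removed and 30 of 71 in thinned sums. Against the monocyte gate they numbered 42 to 100 without each library (229 to 373 tested), 127 of 10400 with no filter and 21 of 100 in thinned sums. With at least 5 cells, which left 2 libraries, they numbered 0 of 550. The interaction called 0 to 11 genes without each library (2371 to 6107 tested), 0 with DESeq2 and 5 of 2100 with RLE scaling. It called 1 of 118 in thinned sums and 79 of 3988 with no endothelial limit. With doublets removed, 4 libraries were left, and 3-month replicate 2 was the only one at 3 months. There the direction of Ptn turned to 0.45 and of Ccl3 to 8.58. The cause of these changes was not tested. The labels do not say that replicate numbers pair the libraries. Correlations of same-numbered deviations in microglia were -0.0940, 0.140 and 0.124, and not every library correlated best with its own number. With deviations taken from the mean of only 3 or 4 libraries per age, these values cannot decide whether libraries were paired. With the replicate number as a block the share differences were 0.0934 for border macrophages and 0.0137 for the monocyte gate, and the age fits called 5 genes in border macrophages and 0 in the monocyte gate. Fits of 10 or 20 cells per library, of age and interaction with at least 5 cells, and of both ages, the interaction and the monocyte gate with at least 4 gate genes could not be run for lack of cells.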
